A study of Mus musculus with 10 samples.

Results

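Opposite-strand genes are genes named after a neighbour that is transcribed from the other DNA strand at the same locus; their symbols carry the neighbour's symbol followed by "os", and the neighbour is called the sense gene here. In the deposited table of 32889 genes, 138 symbols had this form and a sense gene in the same table, and the 67 of them with a sum of at least 50 read counts over the 10 libraries are described here, each beside its sense gene. The other 71 had fewer counts. The genes were selected on their summed counts, which ran from 51.69 to 28336.5 with a median of 294 per gene. Just inside the limit were Emx2os with 53 counts, Scpep1os with 52.33 and Slfn5os with 51.69, and just outside it were Dio3os with 49, Uckl1os with 47 and Bloc1s6os with 46.25.

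The libraries came from total RNA of brown adipose tissue, which burns fuel to make heat, of wild-type C57BL/6J mice. Mice labelled obesity-prone and fed high fat gave 3 libraries, mice labelled obesity-resistant and fed high fat gave 3, and control mice on regular chow gave 4. No age, sex or length of feeding is given in the labels, and nothing in them says that the libraries of a group are separate animals, so that every p-value below measures only the spread between these samples.

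Transcripts from the strand opposite a coding gene can share a divergent promoter with it, can lie inside its introns, or can run into its end. Several such transcripts are known to act on the chromatin or the RNA of the gene they face, others serve as precursors of microRNAs, and for many no function is known. Some loci with an "os" name have since been found to encode small proteins.

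The annotation did not bear the noncoding label out for every gene. RefSeq (GRCm38.p6) classed 58 of the 67 as long noncoding RNA (lncRNA) and Emx2os as antisense RNA, but 5 as protein-coding (Brd3os, Ccpg1os, Cebpzos, Slc7a6os and Wdr83os) and Fbxl12os as a transcribed pseudogene, and Prox2os and Mypopos had no entry. The set is therefore called opposite-strand genes below. All 67 sense genes, 66 distinct ones because Rsf1 faces both Rsf1os1 and Rsf1os2, were protein-coding. All 65 opposite-strand genes with a position lay on the strand opposite their sense gene. In 32 pairs the genes ran head to head, in 16 tail to tail, in 14 the opposite-strand gene lay inside the sense gene and in 3 it spanned it. The annotated spans of 42 pairs overlapped, and in 21 pairs, all of them head to head, the starts lay within 1000 bases of each other. Chromosome 2 held 16 of the genes and chromosome 11 held 15. The spans include introns, and the overlap of the transcripts themselves was not computed. The strand setting of the authors' counting is not given in the sources used here. Reads may therefore be shared between the genes of a pair where their transcripts overlap.

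Each library had 35583997 to 37327770 counts. The brown fat marker Ucp1, which uncouples respiration, averaged 6049 ± 2865 CPM (counts scaled to library size with TMM factors; SD, n = 3) in obesity-prone, 9176 ± 551 (n = 3) in obesity-resistant and 8661 ± 1730 (n = 4) in control libraries. A pair of libraries stood apart. Obesity-prone replicate 3 had the lowest summed level of 10 brown adipocyte markers, 4418 CPM against 9120 to 12985 CPM in the other libraries, and the highest of 6 erythrocyte markers, 22185 CPM against 708 to 6153 CPM. Control replicate 4 had 6153 CPM of erythrocyte markers against 821 to 1220 CPM in the other control libraries. The results are therefore also given without both libraries.

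The opposite-strand genes were mostly low. Ctcflos and Nr6a1os held 44.5% of all counts of the 67 genes and the 10 most abundant held 79.6%, while 41 genes had fewer than 500 counts. Together the 67 genes took 0.0319 to 0.0333% of a library's counts in obesity-prone, 0.0367 to 0.0369% in obesity-resistant and 0.0320 to 0.0338% in control libraries. This share is weighted to the most abundant genes, and Ctcflos was highest in obesity-resistant libraries. Of the 58 genes that passed the filter on low counts, 29 were higher and 29 lower in obesity-resistant than in control libraries (median log2 fold change 0.0031). Compared per length, as FPKM (fragments per kilobase of transcript, scaled to depth) averaged over the libraries, the median ratio of an opposite-strand gene to its sense gene was 0.123, and 13 of the 67 had the higher FPKM of the pair. In 5 of those 13 the sense gene was hardly read at all: Plet1 had 8 counts over the 10 libraries, Pax6 had 4, Rab26 had 3, Emx2 had 16 and Atcay had 14.16.

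**Figure D1:**
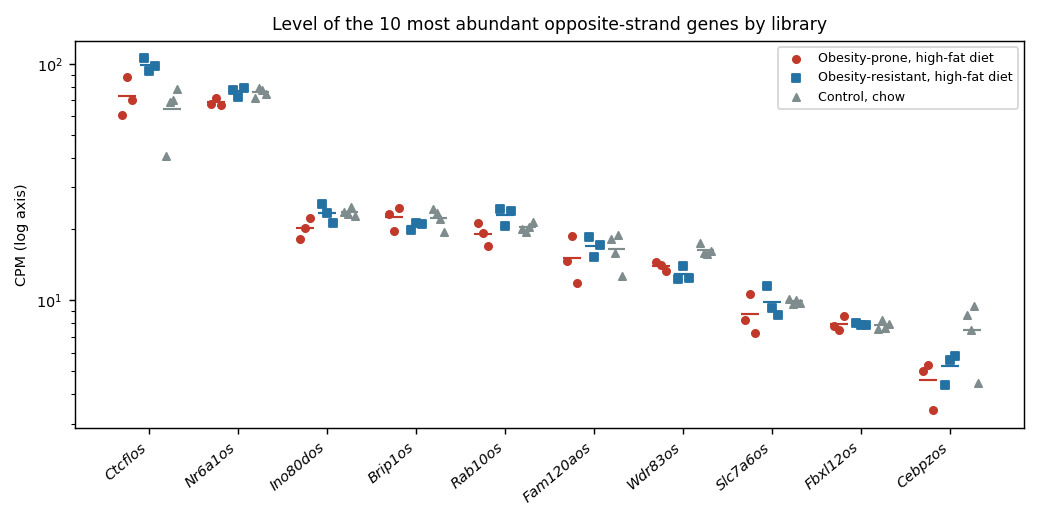
CPM on a log axis of the 10 opposite-strand genes with the most counts, with 1 symbol per library (obesity-prone, obesity-resistant and control from left to right within each gene) and a line at each group's mean. Ctcflos stands highest in the 3 obesity-resistant libraries (93.3 to 106 CPM), and Wdr83os is lower in all high-fat libraries than in every control library.

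Ctcflos (gene ID 74161, chr2:173124749-173133204, plus strand) was the most abundant member. It faces Ctcfl, a paralogue of the chromatin factor CTCF that is known from the male germ line, and the starts of the genes lie 5224 bases apart with no overlap. Its level was 60.8, 87.7 and 70.3 CPM in obesity-prone, 106, 93.3 and 98.2 CPM in obesity-resistant and 40.6, 68.8, 70.2 and 78.5 CPM in control libraries. All 3 obesity-resistant libraries lay above all libraries of both other groups, which overlapped each other. Ctcfl itself had 22.3, 30.8 and 24.6 CPM in obesity-prone, 33.3, 30.7 and 28.3 CPM in obesity-resistant and 19.1, 24.0, 22.1 and 25.1 CPM in control libraries, so that here too the obesity-resistant libraries lay above control. Against control, Ctcflos was higher by 0.62 ± 0.20 on the log2 scale in obesity-resistant libraries (SE, edgeR adjusted p = 0.154) and Ctcfl by 0.45 ± 0.13 (adjusted p = 0.126), and neither passed the threshold of 0.05. Per length, Ctcflos averaged 32.1 FPKM and Ctcfl 20.04 FPKM over all libraries.

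Its promoter is shown because it has little CpG, unlike the divergent promoters given further on. RefSeq's window from 250 bases before to 50 bases after the start (GRCm38.p6, chr2:173124499-173124798, plus strand) holds 3 CpG dinucleotides and 43.3% G and C, and the capitals mark TATAAA and ATTGG, the reverse complement of CCAAT.
Ctcflos promoter: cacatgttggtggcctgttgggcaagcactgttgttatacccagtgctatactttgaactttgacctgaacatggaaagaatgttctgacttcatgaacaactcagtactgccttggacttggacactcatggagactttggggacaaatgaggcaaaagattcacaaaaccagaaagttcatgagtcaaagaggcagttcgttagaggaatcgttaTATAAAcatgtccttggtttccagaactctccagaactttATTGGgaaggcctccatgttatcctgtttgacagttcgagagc

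Nr6a1os (gene ID 102640822, chr2:38815972-38921863, plus strand) lies within Nr6a1, an orphan nuclear receptor of early embryos and germ cells, and holds the hairpins of Mir181a-2 and Mir181b-2 on its own strand. Its level was 67.9, 71.9 and 67.2 CPM in obesity-prone, 77.6, 72.5 and 79.0 CPM in obesity-resistant and 71.5, 79.2, 77.4 and 74.7 CPM in control libraries. The groups lay close together, and only the difference between obesity-prone and obesity-resistant libraries showed no overlap (log2 -0.15 ± 0.08, SE, edgeR adjusted p = 0.385). Nr6a1os stood at 28.5 FPKM and Nr6a1 at 17.2 FPKM on average.
The mature 5p microRNAs of both hairpins (RefSeq, GRCm38.p6) are shown because they share a seed, bases 2 to 8, in capitals.
mmu-miR-181a-5p: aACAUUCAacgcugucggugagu
mmu-miR-181b-5p: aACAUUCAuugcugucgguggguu
The counts are of the host transcript and its locus, and no small RNA was measured.

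Over all 10 libraries edgeR called none of the other 8 of the 10 most abundant genes in any comparison, while DESeq2 called Cebpzos in obesity-prone against control (adjusted p = 0.0487) and Wdr83os in obesity-resistant against control libraries (adjusted p = 0.0165). Ino80dos, which faces the INO80 chromatin-remodelling subunit Ino80d, averaged 20.2 ± 2.002 CPM in obesity-prone, 23.4 ± 2.12 in obesity-resistant and 23.6 ± 0.911 in control libraries (SD, n = 3, 3 and 4). All obesity-prone libraries lay below all control libraries, with a log2 fold change of -0.22 ± 0.09 (SE, edgeR adjusted p = 0.154). Brip1os, which starts 145 bases from the DNA helicase gene Brip1, had 5.96 FPKM on average against 1.002 FPKM for Brip1, and its group means lay between 20.6 and 22.5 CPM. Rab10os overlaps the end of Rab10, a GTPase of vesicle traffic, and its group means lay between 19.1 and 22.9 CPM. Fam120aos, at 11.8 to 18.9 CPM, starts 52 bases from the RNA-binding protein gene Fam120a. Fbxl12os, the pseudogene beside the F-box protein gene Fbxl12, was the most even of the 10, with 7.45 to 8.60 CPM over all libraries.

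The 3 protein-coding genes among the 10 most abundant were Wdr83os, Slc7a6os and Cebpzos. Wdr83os, which encodes a small protein of the endoplasmic reticulum membrane, had 14.5, 14.1 and 13.3 CPM in obesity-prone, 12.2, 13.9 and 12.4 CPM in obesity-resistant and 17.4, 15.7, 15.7 and 16.1 CPM in control libraries. Every high-fat library lay below every control library. The log2 fold change was -0.22 ± 0.09 for obesity-prone and -0.34 ± 0.09 for obesity-resistant against control (SE, edgeR adjusted p = 0.138 and 0.105). Wdr83, the WD-repeat gene it faces, averaged 3.86 ± 0.770 CPM in obesity-prone, 4.26 ± 0.732 in obesity-resistant and 5.61 ± 0.409 in control libraries. The log2 fold change of Wdr83 for obesity-prone against control was -0.54 ± 0.17 (SE, edgeR adjusted p = 0.076). Of the alternatives only DESeq2 called Wdr83 in this comparison (adjusted p = 0.0264). Cebpzos, which encodes a small mitochondrial protein, had 5.0, 5.30 and 3.42 CPM in obesity-prone, 4.39, 5.58 and 5.81 CPM in obesity-resistant and 8.63, 7.47, 9.43 and 4.47 CPM in control libraries. Control replicate 4 lay within the high-fat values, and the other control libraries above them. Cebpz, a CCAAT-binding protein, averaged 35.3 CPM in obesity-prone, 37.4 in obesity-resistant and 35.3 in control libraries.

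Obesity-prone were compared with control libraries to ask what differs in the tissue of mice that fatten on the diet. No opposite-strand gene passed the test: of the 58 that passed the filter on low counts, edgeR called 0 at an adjusted p below 0.05, against 7.0% of all 19676 genes tested, and 9 had an unadjusted p below 0.05, against 28.1% of all genes. DESeq2, which gave 51 of the 58 an adjusted p, called 4, namely Plet1os, Hoxb3os, Acss2os and Cebpzos, all lower in obesity-prone libraries, against 15.9% of all genes. The shares of all genes given for DESeq2, here and below, are of all 19676 genes tested, with or without an adjusted p. The median log2 fold change was -0.16 over the 58 genes and 0.0047 over all genes. The median standard error of the log2 fold change was 0.31 for opposite-strand genes and 0.14 for their sense genes, whose counts were mostly higher. In whole-tissue RNA, fewer cells of a type and less RNA per cell cannot be told apart.

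Without obesity-prone replicate 3 and control replicate 4, an alternative chosen after the data were seen, edgeR called 7 of 59 opposite-strand genes in this comparison, against 13.3% of all genes. Map2k3os rose, and Plet1os, Cebpzos, Hoxb3os, Sp3os, Chrna1os and Lppos fell. Leaving out control replicate 4 alone gave 5 calls (Map2k3os, Cebpzos, Plet1os, Tomm6os and Chrna1os), against 15.6% of all genes.

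Of the 58 sense genes that passed the filter, 4 changed in obesity-prone against control libraries, 6.90%, close to the 7.0% of all genes: Chn1, Tomm6 and Rbm3 fell (lower calls made up 3.29% of all genes) and Dnm3 rose (3.71%). Chn1, a GTPase-activating protein for the small GTPase Rac, had 15.2, 15.8 and 15.2 CPM in obesity-prone, 17.95, 16.3 and 15.9 CPM in obesity-resistant and 30.2, 27.4, 29.3 and 20.9 CPM in control libraries. All high-fat libraries lay below all control libraries, and control replicate 4 lay nearest to them. The log2 fold change was -0.81 ± 0.12 for obesity-prone against control (SE, edgeR adjusted p = 0.0142) and -0.69 ± 0.12 for obesity-resistant against control (adjusted p = 0.0564). Chn1os3, which overlaps the end of Chn1 (chr2:73596526-73616012, plus strand), had 0.109 to 0.490 CPM in obesity-prone, 0.25 to 0.329 in obesity-resistant and 0.145 to 0.615 in control libraries, groups that overlapped throughout (log2 0.12 ± 0.56 for obesity-prone against control, adjusted p = 0.913).

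Tomm6, a small subunit of the protein import channel in the outer mitochondrial membrane, had 32.7, 36.9 and 32.0 CPM in obesity-prone, 38.0, 41.8 and 35.7 CPM in obesity-resistant and 52.1, 47.9, 49.3 and 44.0 CPM in control libraries. It fell by 0.51 on the log2 scale in obesity-prone against control libraries (SE 0.09, edgeR adjusted p = 0.0198), with no overlap between these groups. Tomm6os overlaps the start of Tomm6 (chr17:47687610-47691092, plus strand) and had 0.747, 0.571 and 0.789 CPM in obesity-prone, 0.584, 0.644 and 0.712 CPM in obesity-resistant and 1.79, 1.04, 1.31 and 0.562 CPM in control libraries. Control replicates 1 to 3 lay above all high-fat libraries and control replicate 4 below all of them, and the log2 fold change for obesity-prone against control was -0.74 ± 0.35 (SE, adjusted p = 0.192).

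Rbm3, a cold-inducible RNA-binding protein, had 38.7, 31.2 and 38.9 CPM in obesity-prone, 36.2, 47.7 and 34.9 CPM in obesity-resistant and 47.3, 53.2, 52.3 and 68.1 CPM in control libraries. Obesity-prone libraries all lay below control libraries, with a log2 fold change of -0.61 ± 0.15 (SE, edgeR adjusted p = 0.045). Rbm3os, which overlaps the start of Rbm3 on chromosome X, had 74 counts in all and 0.0272 to 0.342 CPM per library, and its log2 fold change of -0.80 ± 0.58 did not pass (adjusted p = 0.394).

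Dnm3, a dynamin GTPase of membrane scission, had 23.2, 26.5 and 30.6 CPM in obesity-prone, 27.7, 21.4 and 25.3 CPM in obesity-resistant and 18.5, 19.5, 19.3 and 21.2 CPM in control libraries. All high-fat libraries lay above all control libraries, and the log2 fold change for obesity-prone against control was 0.45 ± 0.12 (SE, edgeR adjusted p = 0.047). Dnm3os, the transcript inside Dnm3 that is known as the precursor of miR-199a and miR-214 (chr1:162217623-162225550, plus strand), had 3.09, 2.34 and 5.55 CPM in obesity-prone, 2.86, 2.28 and 1.81 CPM in obesity-resistant and 2.51, 2.14, 1.85 and 2.94 CPM in control libraries. Obesity-prone replicate 3 was highest and the other libraries overlapped (log2 0.63 ± 0.30 for obesity-prone against control, adjusted p = 0.192). Both hairpins lay on the strand of Dnm3os, and 1 mature arm of each (RefSeq, GRCm38.p6) is shown with its seed in capitals, which differs between them.
mmu-miR-199a-5p: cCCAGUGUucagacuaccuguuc
mmu-miR-214-3p: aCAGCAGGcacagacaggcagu
Chn1 and Tomm6 kept their calls in 17 and 14 of 19 alternatives, and Rbm3 and Dnm3 in 6 each. With only the obesity-prone and control libraries in the fit none of the 4 was called (adjusted p from 0.0537 to 0.0858). Leaving out 1 library at a time, Rbm3 and Dnm3 were called only without control replicate 4 (adjusted p = 0.0416 and 0.0322). Chn1 was not called without control replicate 3 (0.0524), and Tomm6 was not called without obesity-prone replicate 1 or control replicate 1, 2 or 3 (0.0523 to 0.0639).

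**Figure D2:**
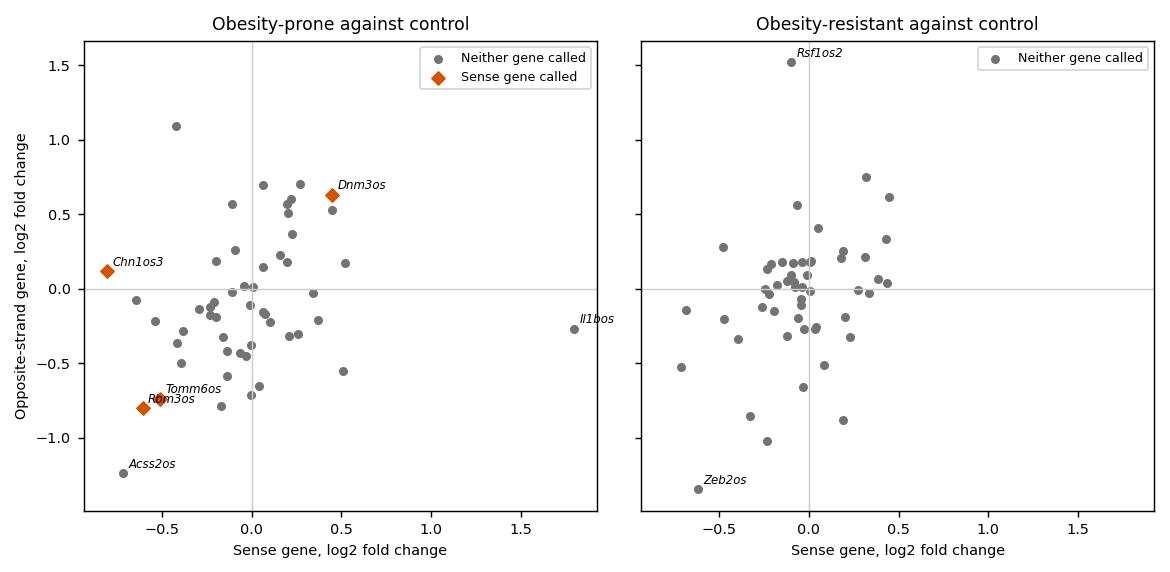
Log2 fold change of the sense gene (x axis) and of its opposite-strand gene (y axis) in 52 pairs where both genes passed the filter, for obesity-prone against control (left) and obesity-resistant against control (right). Diamonds mark the pairs whose sense gene passed the test (Chn1, Tomm6, Rbm3 and Dnm3, left only), and names are printed for these and for the pairs farthest out.

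In 52 pairs both genes passed the filter. The fold changes of the pair had the same sign in 36 pairs for obesity-prone against control and in 28 for obesity-resistant against control. For obesity-prone against obesity-resistant this held in 35 pairs. These comparisons share libraries with each other. No such count was made for other pairs of genes, so no excess can be read from these counts. The opposite-strand gene had the larger change of the pair in 34, 28 and 35 pairs in the same order, beside its larger standard error. The levels of 5 opposite-strand genes did not overlap between obesity-prone and control libraries, 8.62% against 20.3% of all genes (9.66% higher and 10.6% lower), and all 5 were lower in obesity-prone libraries: Ino80dos, Wdr83os, Rptoros, Acss2os and Plet1os.

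Among these, chosen after their values were seen, Plet1os had the lowest adjusted p of any opposite-strand gene in this comparison. It overlaps Plet1, a surface protein of epithelial progenitors (chr9:50488799-50504805, minus strand). Its level was 1.70, 1.52 and 0.552 CPM in obesity-prone, 1.75, 1.74 and 1.67 CPM in obesity-resistant and 3.18, 2.84, 3.39 and 2.09 CPM in control libraries. Every high-fat library lay below every control library, with a log2 fold change of -1.19 ± 0.33 for obesity-prone and -0.74 ± 0.33 for obesity-resistant against control (SE, edgeR adjusted p = 0.0564 and 0.268). The mesothelial markers, 5 of 6 listed genes in the table and 1 above 1 CPM on average, summed to 0.593 to 0.978 CPM in obesity-prone, 1.66 to 2.17 CPM in obesity-resistant and 2.41 to 8.004 CPM in control libraries, with no overlap between the groups and with control replicate 4 the lowest control; their part in the values of Plet1os was not tested. Acss2os lies inside Acss2, which makes acetyl-CoA from acetate, and had 1.93, 1.82 and 1.45 CPM in obesity-prone, 1.86, 2.36 and 4.30 CPM in obesity-resistant and 7.93, 2.46, 4.02 and 1.98 CPM in control libraries. Acss2 itself had 63.4, 63.6 and 50.6 CPM in obesity-prone, 56.7, 53.1 and 68.1 CPM in obesity-resistant and 133, 80.9, 113 and 61.3 CPM in control libraries. Both genes were highest in control replicate 1 and neither was called in the edgeR fit reported (obesity-prone against control, log2 -1.24 ± 0.47 and -0.71 ± 0.23, edgeR adjusted p = 0.125 and 0.0841). DESeq2 called both lower in obesity-prone libraries (adjusted p = 0.0461 for Acss2os and 0.0267 for Acss2). Acss2, but not Acss2os, was also called by edgeR without control replicate 4 (adjusted p = 0.0169) and without both libraries that stand apart (0.0375). With the replicate number as a block Acss2 was called too (edgeR adjusted p = 0.0387). The other alternatives called neither gene in this comparison.

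Obesity-resistant were compared with control libraries to ask the same of mice that resist it. Of 58 opposite-strand genes, edgeR called 0, against 0.142% of all genes (0.0966% higher and 0.0457% lower), and 8 had an unadjusted p below 0.05, against 18.0% of all genes. DESeq2, with an adjusted p for 55 of the 58, called 3: Rsf1os2 was higher in obesity-resistant libraries, and Zeb2os and Wdr83os were lower, against 5.78% of all genes called. None of the 58 sense genes was called by edgeR (13 with an unadjusted p below 0.05), and DESeq2 called 3, with Ctcfl higher and Chn1 and Tomm6 lower. Same-numbered libraries of these groups deviated together only weakly, with correlations of 0.12 to 0.19. With the replicate number as a block 2 opposite-strand genes were called, Map2k3os (log2 1.1, adjusted p = 0.0363) and Rsf1os2 (1.83, 0.0413), together with the sense gene Chn1 (-0.79, 0.0224). Over all genes 382 were called with the block, against 28 without it. Only control has a replicate 4, so the block also takes that library out of the estimate. Without control replicate 4 and with no block, these log2 fold changes were 1.11, 1.85 and -0.79, and 864 of all genes were called.

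Without obesity-prone replicate 3 and control replicate 4, edgeR called 9 of 59 opposite-strand genes in obesity-resistant against control libraries, against 11.1% of all genes. Map2k3os and Rsf1os2 rose, and Cebpzos, Sp3os, Plet1os, Lppos, Zeb2os, Tomm6os and Wdr83os fell. Leaving out control replicate 4 alone gave 4 calls, Map2k3os, Rsf1os2, Zeb2os and Sp3os, against 4.42% of all genes.

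Zeb2os and Rsf1os2, again chosen after their values were seen, had the lowest adjusted p in this comparison. Zeb2os lies inside Zeb2, a transcriptional repressor (chr2:45111138-45114087, plus strand), and had 1.16, 1.22 and 1.63 CPM in obesity-prone, 0.667, 0.886 and 0.493 CPM in obesity-resistant and 2.09, 1.42, 2.22 and 1.23 CPM in control libraries. The obesity-resistant libraries lay below all others, with a log2 fold change of -1.35 ± 0.29 against control (SE, edgeR adjusted p = 0.0792). Zeb2 had 341, 264 and 484 CPM in obesity-prone, 229, 213 and 268 CPM in obesity-resistant and 457, 287, 379 and 331 CPM in control libraries (log2 -0.62 ± 0.22 for obesity-resistant against control, adjusted p = 0.18). Zeb2 is also a gene of macrophages, and the summed level of 10 macrophage markers was 186 to 539 CPM in obesity-prone, 127 to 157 CPM in obesity-resistant and 126 to 227 CPM in control libraries; its part in these values was not tested.

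Rsf1os2 lies across the end of Rsf1, a subunit of a nucleosome-spacing complex (chr7:97650010-97696621, minus strand). It had 0.567, 0.870 and 0.605 CPM in obesity-prone, 1.64, 1.1 and 0.877 CPM in obesity-resistant and 0.363, 0.347, 0.285 and 0.669 CPM in control libraries. All obesity-resistant libraries lay above all others, with a log2 fold change of 1.52 ± 0.34 against control (SE, edgeR adjusted p = 0.084). Rsf1os1, the other transcript opposite Rsf1, averaged 1.57 ± 0.263 CPM in obesity-prone, 1.86 ± 0.150 in obesity-resistant and 1.75 ± 0.181 in control libraries (SD, n = 3, 3 and 4). Rsf1 itself varied only from 25.8 to 31.5 CPM over all libraries. Obesity-resistant and control libraries did not overlap for 5 opposite-strand genes, 8.62% against 20.2% of all genes (10.5% higher and 9.71% lower): Ctcflos and Rsf1os2 were higher in obesity-resistant libraries, and Wdr83os, Plet1os and Zeb2os were lower.

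**Figure D3:**
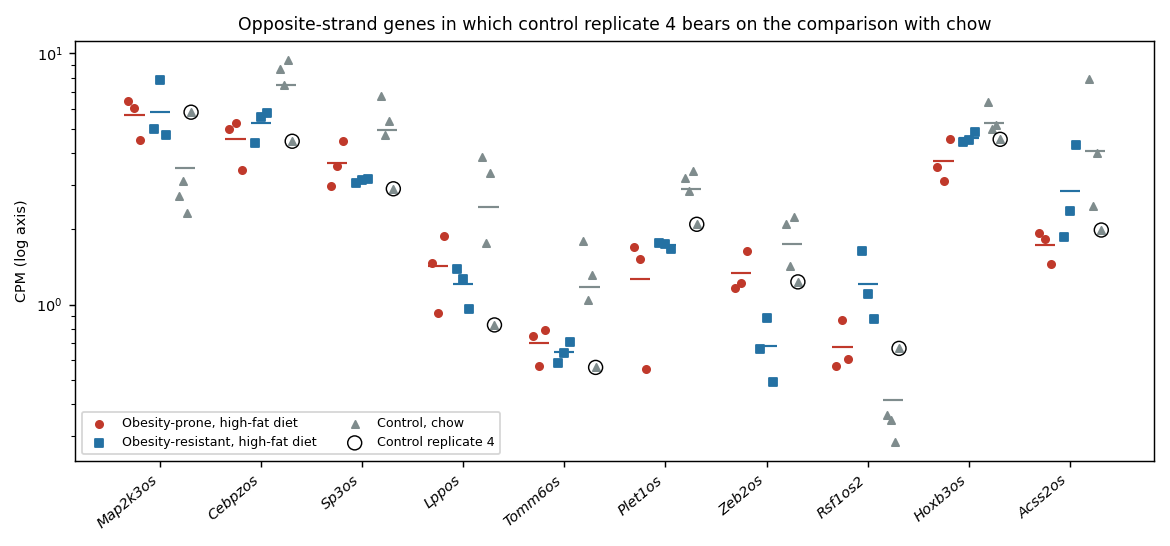
CPM on a log axis of 10 opposite-strand genes by library, obesity-prone, obesity-resistant and control from left to right within each gene, with a line at each group's mean and a ring around control replicate 4. For Map2k3os the ringed value is 5.83 CPM, above the other control libraries, and for Tomm6os it is 0.562 CPM, below them.

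Between obesity-prone and obesity-resistant libraries, edgeR called 0 of 58 opposite-strand genes and 0 of 58 sense genes, against 0.0% of all genes. An unadjusted p below 0.05 was found for 7 opposite-strand and 6 sense genes, against 15.4% of all genes, and DESeq2, with an adjusted p for 42 of the opposite-strand genes, called 0 of either, against 2.87% of all genes. The lowest adjusted p, 0.243, was that of Zeb2os (log2 0.97 ± 0.31, higher in obesity-prone libraries). The groups did not overlap for 8 opposite-strand genes, 13.8% against 19.7% of all genes (10% higher and 9.75% lower), with Zeb2os, Epb41l4aos and Arhgap27os3 higher and Ctcflos, Nr6a1os, Mkln1os, Rsf1os2 and Man2c1os lower in obesity-prone libraries.

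Whether an opposite-strand gene and its sense gene varied together was asked over the 10 libraries on log2 CPM. This was done for the 61 pairs in which both had at least 50 counts, beside a background of 2142 pairs, called all pairs here. The background held annotated lncRNAs, each with its nearest coding gene on the other strand, both with at least 50 counts. It also held the 61 pairs themselves, whatever the class of the opposite-strand gene and whether or not the sense gene was nearest. Pearson's r had an adjusted permutation p below 0.05 in 8 of the 61 pairs, 13.1%, against 3.22% of all pairs (3.03% with a positive r), and all 8 were positive. The median r was 0.36 over the 61 pairs and 0.17 over all pairs, and 45 of the 61 were above 0, 73.8% against 63.3%. The background had no limit on the distance between the genes and was not matched on counts. Its values and those of the 61 pairs therefore do not compare like with like. With Spearman's rho none of the 61 pairs passed after adjustment (23 of all pairs), and without obesity-prone replicate 3 and control replicate 4 none did either (2 of all pairs). Leaving out 1 library left 1 to 4 of the pairs, the fewest without obesity-prone replicate 3 or without control replicate 1, against 20 to 44 of all pairs (20 and 22 without these) and 69 with every library.

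**Figure D4:**
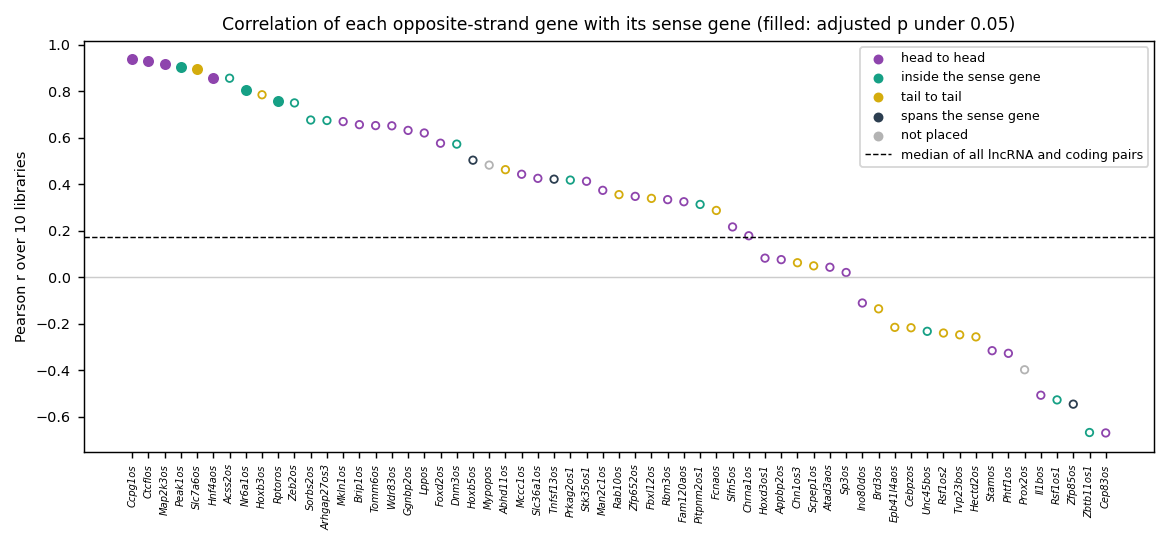
Pearson's r over 10 libraries for each of the 61 pairs in falling order, coloured by how the genes lie to each other, with filled symbols for an adjusted permutation p below 0.05 and a dashed line at the median of all 2142 pairs. The 8 filled pairs lie at the upper left between 0.94 and 0.76, and no pair at the lower right is filled.

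Ccpg1os and Ccpg1 had the highest r, 0.94 (adjusted permutation p = 0.0286), with a rho of 0.82 (adjusted p = 0.136). Ccpg1 encodes a receptor for the degradation of endoplasmic reticulum. Ccpg1os had 3.32, 3.59 and 2.71 CPM in obesity-prone, 3.11, 3.03 and 3.32 CPM in obesity-resistant and 2.99, 2.72, 3.22 and 2.03 CPM in control libraries, while Ccpg1 had 64.7, 73.2 and 62.7 CPM in obesity-prone, 68.6, 60.9 and 73.6 CPM in obesity-resistant and 62.6, 60.8, 69.0 and 47.1 CPM in control libraries. Control replicate 4 was lowest in both genes and obesity-prone replicate 2 was highest in Ccpg1os. Without the 2 libraries farthest from the median of Ccpg1 the r was 0.80, and with group means removed it was 0.92.

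The genes start 26 bases apart on opposite strands without overlap. The Ccpg1os window (GRCm38.p6, chr9:72985327-72985626, minus strand) is shown because it holds both starts: that of Ccpg1 lies at base 225 of the 300. It has 33 CpG dinucleotides and 66.0% G and C, and the capitals mark CCGGAAG and GGGCGG.
Ccpg1os promoter: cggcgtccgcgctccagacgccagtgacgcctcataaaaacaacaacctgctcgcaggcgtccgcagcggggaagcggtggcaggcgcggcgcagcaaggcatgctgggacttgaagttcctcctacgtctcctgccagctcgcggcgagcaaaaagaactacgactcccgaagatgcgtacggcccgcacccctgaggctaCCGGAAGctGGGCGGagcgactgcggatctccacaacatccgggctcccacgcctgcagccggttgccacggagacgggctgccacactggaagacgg

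Ctcflos and Ctcfl, whose values stand above, had an r of 0.93 (adjusted permutation p = 0.0107) and a rho of 0.92 (adjusted p = 0.0506). Without the 2 farthest libraries the r was 0.89, and with group means removed 0.86.

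Map2k3os and Map2k3 had an r of 0.92 (adjusted permutation p = 0.0269) and a rho of 0.88 (adjusted p = 0.091). Map2k3 encodes a kinase that activates p38. Map2k3os had 6.44, 6.09 and 4.52 CPM in obesity-prone, 5.0, 7.86 and 4.71 CPM in obesity-resistant and 2.71, 3.10, 2.31 and 5.83 CPM in control libraries, while Map2k3 had 36.3, 34.5 and 34.2 CPM in obesity-prone, 37.3, 41.6 and 29.7 CPM in obesity-resistant and 27.1, 24.7, 24.6 and 39.9 CPM in control libraries. Control replicates 1 to 3 lay below all high-fat libraries in both genes, and control replicate 4 lay among them. Over all libraries Map2k3os was higher by 0.70 ± 0.31 (log2) in obesity-prone and by 0.75 ± 0.31 in obesity-resistant against control (SE, edgeR adjusted p = 0.175 and 0.249), and without control replicate 4 by 1.07 and 1.11 (adjusted p = 0.0199 and 0.0347). Without the 2 farthest libraries the r of the pair was 0.86, and with group means removed 0.88.

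The starts lie 187 bases apart, and the Map2k3os window (GRCm38.p6, chr11:60931818-60932117, minus strand) holds that of Map2k3 at base 64. It has 30 CpG dinucleotides, and the capitals mark GGGCGG or its reverse complement CCGCCC, and ATTGG, the reverse complement of CCAAT.
Map2k3os promoter: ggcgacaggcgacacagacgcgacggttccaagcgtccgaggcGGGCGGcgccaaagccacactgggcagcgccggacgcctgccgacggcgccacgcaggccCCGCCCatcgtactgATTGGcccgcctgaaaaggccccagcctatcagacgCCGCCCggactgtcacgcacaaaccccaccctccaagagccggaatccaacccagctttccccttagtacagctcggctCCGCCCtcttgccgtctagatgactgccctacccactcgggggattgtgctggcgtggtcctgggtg

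The other 5 pairs called were Peak1os (r = 0.91), Slc7a6os (0.89), Hnf4aos (0.86), Nr6a1os (0.81) and Rptoros (0.76), with adjusted permutation p from 0.0214 to 0.0497. Their rho ran from 0.68 (Slc7a6os) to 0.83 (Peak1os), with adjusted permutation p from 0.0966 to 0.297. Peak1os lies inside Peak1, a pseudokinase of the cytoskeleton, and both were highest in obesity-prone replicate 3, at 2.34 CPM for Peak1os and 151 CPM for Peak1. Slc7a6os and the amino acid transporter gene Slc7a6 were both lowest in that library (7.26 and 36.9 CPM) and highest in obesity-resistant replicate 1 (11.5 and 117 CPM). Without the 2 farthest libraries the r of Slc7a6os was 0.61. Hnf4a, a nuclear receptor of liver and gut, was above 0.05 CPM only in obesity-prone replicate 3 (0.921 CPM) and obesity-resistant replicate 3 (1.23 CPM), the libraries in which Hnf4aos was also highest (0.368 and 0.986 CPM), so that the pair's r rests on them and was 0.58 without the 2 farthest libraries. Rptoros lies inside Rptor, the raptor subunit of the mTORC1 kinase complex, and both were lowest in obesity-prone replicate 3 (2.26 and 88.3 CPM). Without the 2 farthest libraries the r was 0.49 for Rptoros, 0.72 for Nr6a1os and 0.83 for Peak1os. With group means removed 7 of the 61 pairs and 89 of all pairs were called, and the r of Nr6a1os (0.57, adjusted permutation p = 0.344) and of Rptoros (0.69, adjusted permutation p = 0.152) no longer passed. In this setting the centred values were permuted freely over all 10 libraries, across the groups. Its p-values can therefore be too small, and its counts of calls too high.

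**Figure D5:**
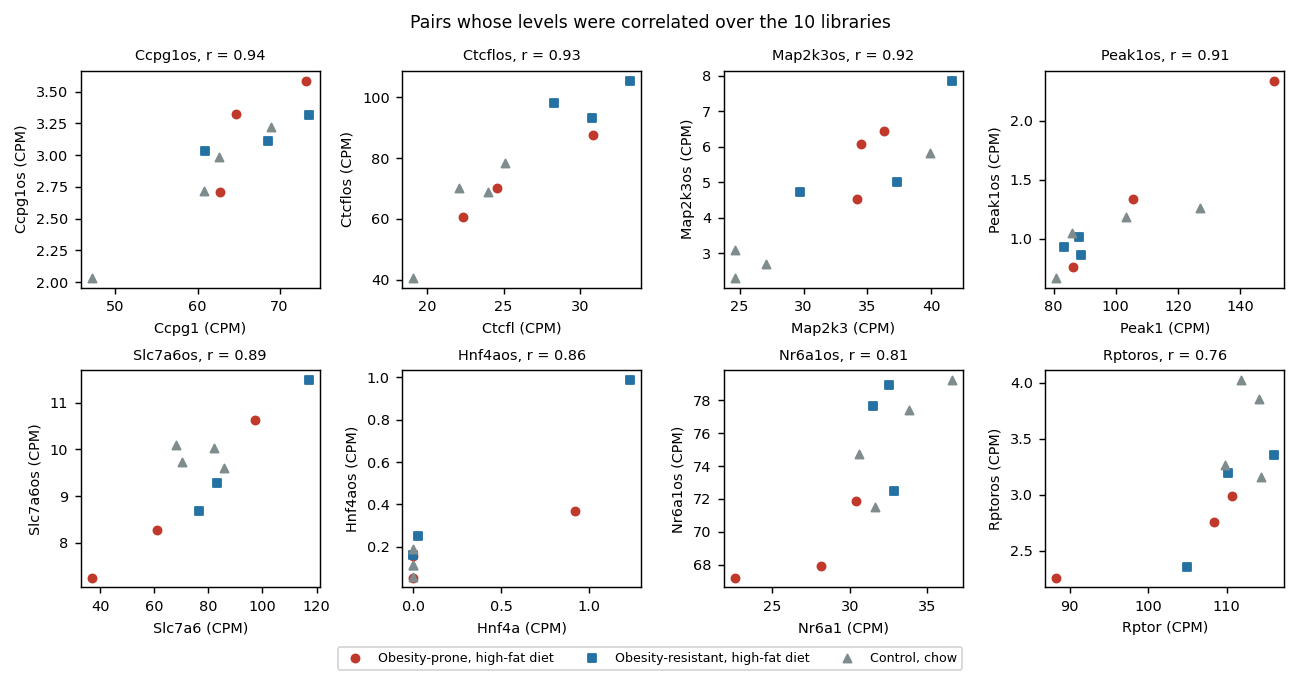
CPM of the sense gene (x axis) and of the opposite-strand gene (y axis) in the 10 libraries for the 8 pairs whose r passed, on linear axes that do not all start at 0. Circles are obesity-prone, squares obesity-resistant and triangles control libraries; in the Map2k3os panel 3 triangles lie apart at the lower left, and in the Hnf4aos panel a circle and a square lie away from the rest.

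At the other end, 5 pairs had the lowest r among those where both genes passed the filter, and none passed after adjustment: Cep83os (-0.67), Zbtb11os1 (-0.67), Zfp85os (-0.55), Rsf1os1 (-0.53) and Il1bos (-0.51), with adjusted permutation p from 0.235 to 0.435. Their rho ran from -0.61 (Rsf1os1) to -0.45 (Zfp85os), and none passed. Cep83os and Cep83, a protein of the centriole, start 11 bases apart. Cep83os had 3.71, 2.80 and 4.39 CPM in obesity-prone, 3.92, 3.84 and 4.06 CPM in obesity-resistant and 5.36, 3.94, 4.93 and 3.72 CPM in control libraries, while Cep83 had 12.7, 11.6 and 12.2 CPM in obesity-prone, 11.5, 11.5 and 12.002 CPM in obesity-resistant and 8.85, 10.7, 9.17 and 11.8 CPM in control libraries. Control replicates 1 and 3 were highest in Cep83os and lowest in Cep83, and without the 2 farthest libraries the r was 0.12.

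The Cep83os window (GRCm38.p6, chr10:94688564-94688863, minus strand) is shown beside those of Ccpg1os and Map2k3os because it too holds both starts, that of Cep83 at base 240, while its pair had the lowest r. It has 46 CpG dinucleotides and 76.7% G and C, and the capitals mark GGGCGG or its reverse complement.
Cep83os promoter: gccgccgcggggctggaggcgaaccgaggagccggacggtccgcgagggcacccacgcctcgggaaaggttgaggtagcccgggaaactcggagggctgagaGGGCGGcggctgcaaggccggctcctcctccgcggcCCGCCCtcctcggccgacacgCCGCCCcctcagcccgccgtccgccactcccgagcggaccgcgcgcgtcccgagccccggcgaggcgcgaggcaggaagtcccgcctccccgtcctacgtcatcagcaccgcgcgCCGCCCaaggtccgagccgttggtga

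Zbtb11os1 lies inside the zinc finger gene Zbtb11, and it had 5.0, 4.95 and 4.37 CPM in obesity-prone, 4.50, 4.4 and 5.40 CPM in obesity-resistant and 6.42, 5.88, 6.95 and 4.60 CPM in control libraries, with control replicate 4 again among the high-fat values. Il1bos overlaps the start of Il1b, the inflammatory cytokine. Il1bos averaged 0.618 ± 0.246 CPM in obesity-prone, 0.939 ± 0.200 in obesity-resistant and 0.745 ± 0.165 in control libraries (SD, n = 3, 3 and 4). Il1b averaged 1.72 ± 0.533 CPM in obesity-prone, 0.666 ± 0.279 in obesity-resistant and 0.493 ± 0.382 in control libraries. The log2 fold change of Il1b in obesity-prone against control was 1.80 ± 0.57 (SE, edgeR adjusted p = 0.0782). DESeq2 called Il1b higher in this comparison (adjusted p = 0.0234), and so did edgeR without control replicate 4 (0.0293). It was also called under the replicate block (edgeR adjusted p = 0.0378) and by limma on log2(FPKM + 0.5) (adjusted p = 0.0352), and under no other alternative. Zfp85os, which spans the zinc finger gene Zfp85, had 0.247 to 0.639 CPM over all libraries.

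By position, as a description, the median r was 0.67 over 13 pairs with the opposite-strand gene inside the sense gene, 0.37 over 29 head-to-head pairs and 0.06 over 14 tail-to-tail pairs. It was 0.43 over 20 pairs with starts within 1000 bases and 0.34 over 39 pairs with starts farther apart. Of 38 pairs with overlapping spans 4 were called, and of 21 without overlap also 4 (Ccpg1os, Ctcflos, Map2k3os and Slc7a6os), pairs whose annotated spans share no base.

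RefSeq's promoter windows were found for 53 of the 67 genes, in 64 windows. Where the starts lay within 1000 bases (18 genes, 20 windows), the windows had a median CpG content of 0.86 of that expected from their C and G and held GGGCGG in 65.0%. For the 35 genes with starts farther away (44 windows) these were 0.31 and 15.9%, and for all 32841 windows of 27018 genes 0.38 and 35.7%. Short motifs were searched on both strands, and none contains another. The TATA box TATAAA was in 6.25% of the windows of the 53 genes and 13.6% of all windows, the CCAAT box CCAAT in 20.3% and 37.4%, and the GC box GGGCGG in 31.2% and 35.7%. The ETS motif CCGGAAG was in 12.5% and 8.86%, the E-box CACGTG in 10.9% and 7.15%, and the cAMP response element TGACGTCA in 1.56% and 1.79%. A match is a run of letters and not a shown site.

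Of the sense genes, 7 were patterning transcription factors (Hoxb3, Hoxb5, Hoxd3, Foxd2, Pax6, Emx2 and Prox2), which set regional identity in the embryo. Of their opposite-strand genes 6 passed the filter and of the factors themselves 5, and edgeR called none in any comparison over all 10 libraries. DESeq2 called Hoxb3os, and the fit without the 2 libraries that stand apart called both Hoxb3os and Hoxb3, lower in obesity-prone against control libraries. Hoxb3os had 3.53, 3.10 and 4.58 CPM in obesity-prone, 4.42, 4.51 and 4.88 CPM in obesity-resistant and 6.42, 5.01, 5.18 and 4.55 CPM in control libraries. It was lower in obesity-prone against control libraries by a log2 fold change of -0.50 ± 0.17 (SE, edgeR adjusted p = 0.0914; DESeq2 adjusted p = 0.0388; 0.0237 in edgeR without the 2 libraries), with obesity-prone replicate 3 just above control replicate 4. Hoxb3 averaged 8.05 ± 2.54 CPM in obesity-prone, 7.62 ± 1.08 in obesity-resistant and 10.6 ± 1.30 in control libraries (SD, n = 3, 3 and 4; edgeR adjusted p = 0.0372 without the 2 libraries), and per length both genes were near each other, at 2.44 FPKM for Hoxb3os and 2.54 FPKM for Hoxb3. Foxd2os had a higher FPKM than Foxd2 (0.556 against 0.204 on average), and the levels of Hoxb5os, 0.550 to 1.24 CPM, and of Hoxd3os1, 0.0537 to 0.427 CPM, overlapped between all groups.

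Atcayos, opposite the neuronal gene Atcay and again chosen after its values were seen, varied widely within the groups. It had 0.0773, 0.0544 and 0.210 CPM in obesity-prone, 0.167, 0.349 and 1.07 CPM in obesity-resistant and 0.196, 1.45, 1.03 and 0.0803 CPM in control libraries. The summed level of 12 skeletal muscle markers was 60.6, 24.6 and 92.4 CPM in obesity-prone, 26.5, 246 and 782 CPM in obesity-resistant and 44.9, 931, 462 and 26.6 CPM in control libraries. Both were highest in control replicate 2, obesity-resistant replicate 3 and control replicate 3, and the part of muscle in the values of Atcayos was not tested. The log2 fold change of Atcayos in obesity-prone against control libraries was -2.55 ± 1.05 (SE, edgeR adjusted p = 0.147).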

How the data were processed

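Brown adipose tissue RNA was measured in 10 libraries of 3 groups, as the labels give them. Per the labels' protocols, the authors aligned reads with Bowtie2 2.2.5 to a gene set of the sequencing company that holds coding and noncoding transcripts, and computed expression with RSEM 1.2.12; HISAT2 2.0.4 and GRCm38.p6 are listed in the submitters' processing notes. The deposited table gives expected counts, which are not normalised (30.4% were not whole), and FPKM, per gene and library. Where the transcripts of a pair overlap, RSEM shares out ambiguous reads by estimate. The sequencing layout and strand setting are not given in the sources used here.

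Here the expected counts were rounded and fitted in edgeR 4.0.16 (R 4.3.3) with TMM factors, filterByExpr (minimum count 10) and the robust quasi-likelihood test, with a term for each group, all 10 libraries and 7 residual degrees of freedom, with Benjamini-Hochberg adjustment over 19676 genes. The filter passed 58 of the 67 opposite-strand genes. The 9 others had at most 91.46 counts each. CPM use TMM library sizes. Correlations used log2 CPM with a prior count of 2 and two-sided permutation tests of 100000 resamples, adjusted over 2142 pairs. Depth, 35583997 to 37327770 counts per library, limits the precision of the many members with few counts. Alternatives were RLE factors, no filter and a stricter one (1 CPM in 3 libraries), DESeq2 1.42.0, the 2 groups compared alone, the replicate number as a block, limma 3.58.1 on log2(FPKM + 0.5) and log2(FPKM + 0.1), and leaving out libraries; for the correlations they were RLE factors, a prior count of 0.5, Spearman's rho, log2(FPKM + 0.1), group means removed and leaving out libraries. The fit and the correlation test were tested on simulated data.

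Of 25017 numeric gene IDs, 24350 matched RefSeq (GRCm38.p6), which gave class and position; strand came from RefSeq's promoter table or else GENCODE M21. Members, gene lists and tests were chosen with earlier results of these data known. The genes named were those whose own or sense gene passed a test, the 10 with the most counts, the 5 highest and 5 lowest correlations where both genes passed the filter, and those at the limit of 50 counts; Ucp1 was the tissue check, and others are said to be chosen after their values were seen or complete a count. Deviations of same-numbered libraries from their group means correlated at 0.15, 0.12 and 0.19 between obesity-resistant and control libraries. The fit reported has no pairing, and the replicate number entered as a block only in an alternative. Such a pairing comes from the data and not from the labels. As only control has a replicate 4, the block also takes that library out of the estimate. Between obesity-prone and control libraries the correlations were -0.09, -0.10 and -0.15, and between obesity-prone and obesity-resistant libraries -0.11, -0.06 and 0.21.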

Additional observations from a re-analysis of the deposited data

Results flagged for a closer look

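Among the 44 sets of control values examined, those of 22 opposite-strand genes named by the rule and of their sense genes, 1 held a library far from the others. Map2k3 was at 39.9 CPM in control replicate 4, against 27.1, 24.7 and 24.6 CPM in control replicates 1 to 3, and the gap to the nearest library was 0.839 of the range, above the critical value of Dixon's test for 4 libraries. By chance about 1 set in 20 passes it. Map2k3os was highest in the same control library, at 5.83 CPM against 2.71, 3.10 and 2.31 CPM.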

How the results depend on the processing

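Counts of calls moved most with the choice of libraries and of tool. The number of all genes called moved too and is given beside them. Of opposite-strand genes called in obesity-prone against control libraries (0 in the fit reported), DESeq2 gave 4, the replicate block 2 (Map2k3os and Atcayos), and leaving out both obesity-prone replicate 3 and control replicate 4 gave 7. Leaving out each library gave 0 to 5, with 5 only without control replicate 4. The replicate block also sets control replicate 4 apart, as no other group has that number. Of their sense genes (4), DESeq2 gave 9, the fit of only these 2 groups 0 and the fit without both libraries 10, and leaving out each library gave 0 to 8. All genes called in this comparison numbered 1377 of 19676 in the fit reported, 3138 under DESeq2 and 1582 under the replicate block. They were 66 of 19166 with only the 2 groups, 2635 of 19867 without both libraries and 76 to 3040 leaving out each library. For obesity-resistant against control libraries, opposite-strand genes (0) gave 3 under DESeq2, 2 under the replicate block, 1 with limma on log2(FPKM + 0.5) and 9 without both libraries, and 0 to 4 leaving out each library. Their sense genes (0) gave 1 with no filter, 3 under DESeq2, 1 with only the 2 groups, 1 under the replicate block, 1 with limma at either constant, 9 without both libraries and 0 to 3 leaving out each library. All genes called here numbered 28 of 19676 in the fit reported, 1138 under DESeq2, 382 under the replicate block and 36 and 34 with limma at 0.5 and 0.1. They were 76 of 32789 with no filter, 391 of 19103 with only the 2 groups, 2212 of 19867 without both libraries and 3 to 864 leaving out each library. Between obesity-prone and obesity-resistant libraries the counts were 0 under every alternative run. All genes called there numbered 565 under DESeq2, 871 without obesity-prone replicate 2, 1 without control replicate 3 and 0 otherwise. Correlated pairs (8) numbered 0 by Spearman's rho, 4 on log2(FPKM + 0.1), 0 without both libraries and 1 to 4 leaving out each library. Of all 2142 pairs 69 were called in the test reported, and 23, 40, 2 and 20 to 44 under these alternatives in the same order. The causes were not tested. No log2 fold change of Chn1, Tomm6, Rbm3 or Dnm3 changed sign; under the replicate block those of Dnm3 (0.48, adjusted p = 0.0661) and Rbm3 (-0.48, adjusted p = 0.0888) were not called. The depth leaves 41 of the 67 genes with fewer than 500 counts, and for these small changes were not detectable.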
